A study of Mus musculus with 4 samples.

Results

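The genes described here are the enzymes of glycolysis and of the pentose phosphate pathway, together with a small set of their regulators. They were taken as a list of 35 gene symbols and matched by symbol in each count table. All 35 were found among the 55367 symbols of the tables, and all 35 passed the filter on low counts that left 12403 genes for testing. The list was made by pathway and not by a threshold on measured values.

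The 4 libraries were RNA-seq of sorted splenic CD4+ T cells from C57BL/6 mice, 2 labelled WT and 2 labelled Satb1 conditional knockout (cKO), with no treatment. Satb1 encodes a chromatin organiser of the T cell nucleus, and the comparison asks how its loss in the CD4 lineage alters gene expression. The series covers mice with floxed Satb1 (Satb1 F/F) that carry ThPOK-cre or E8I-cre, and the study describes ThPOK-cre, which becomes active after commitment to the CD4 lineage, as the driver for the CD4+ T cells. This driver acts in the whole CD4 compartment, regulatory T (Treg) cells included. The labels give neither the age nor the sex of the mice, do not say whether the WT mice carried Cre or floxed alleles, and do not say that the libraries of a genotype came from separate mice. The study describes the duplicates as biological replicates, and the p-values measure the spread between these libraries. The study's methods describe young adult mice of both sexes.

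Glycolysis splits glucose into pyruvate in the cytosol. A preparatory stage phosphorylates and divides the sugar, and a payoff stage yields ATP and NADH. Lactate dehydrogenase then interconverts pyruvate and lactate, or pyruvate enters mitochondria, where the pyruvate dehydrogenase complex oxidises it. The pentose phosphate pathway branches off at glucose 6-phosphate and supplies NADPH and ribose for nucleotides. Resting T cells rely largely on mitochondrial oxidation, whereas activated effector T cells raise glycolysis through Myc and the hypoxia-inducible factor HIF-1.

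The libraries held between 4495902 and 6555699 reads counted on genes, and between 59.4% and 64.5% of the reads that were counted, ambiguous or on no feature lay on no feature. Satb1 itself was counted 5677 and 4390 times in WT and 4958 and 3986 times in cKO, a log2 fold change of -0.05 (SE 0.12, adjusted p = 0.877, edgeR), so the counts of the targeted gene did not separate the genotypes and each direction below follows the label. The counts cover the whole gene and do not resolve the floxed part. Other genes that the study examined in these cells did separate the genotypes: Foxp3, the X-linked master regulator of Treg cells, was at 141 and 120 CPM in WT and 404 and 545 CPM in cKO, a fold of 3.62 (adjusted p = 0.000447, edgeR). Pdcd1, which encodes the inhibitory receptor PD-1, was at 27.1 and 24.1 CPM in WT and 49.7 and 45.5 CPM in cKO, a fold of 1.85 (adjusted p = 0.0113). The female-specific Xist was counted 5447 and 4235 times in WT and 9 and 6 times in cKO, and the Y-linked Ddx3y 0 and 0 times in WT and 525 and 597 times in cKO. Sex, as read from these genes, and genotype therefore cannot be told apart in these libraries, for autosomal genes as well as sex-linked ones. Of the 35 genes, 3 lie on the X chromosome (Pgk1, Pdha1 and G6pdx).

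Between the genotypes, Ldhb rose 2.54-fold and Pdk1 fell to 0.466 of its WT level, and none of the other 33 genes passed the threshold of an adjusted p under 0.05. Ldhb encodes the heart-type (H) subunit of lactate dehydrogenase, and Pdk1 a kinase that phosphorylates and inhibits pyruvate dehydrogenase. The 2 calls are 5.71% of the 35 genes, against 4.30% of all tested genes, a share close to the background. In the single directions the background was 2.35% for genes higher in cKO and 1.95% for genes lower in cKO. Over all 35 genes, 11 log2 fold changes were above 0 and 24 below, with a median of -0.09, while all tested genes split into 6173 above and 6230 below with a median of -0.0015. The split rested in part on single libraries, being 16 above and 19 below without WT 1, 15 and 20 without cKO 2, and 7 and 28 without WT 2 and likewise without cKO 1. The cKO libraries lay entirely above the WT libraries for 4 genes and entirely below for 14, so that 18 of 35 did not overlap, against 50.3% of all tested genes (24.8% higher and 25.4% lower in cKO). An unadjusted p under 0.05 was reached by 10 of the 35, against 19.1% of all tested genes.

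The windows around the transcription start are shown for 4 genes, namely both called genes and the members with the largest uncalled differences in either direction, because HIF-1 and Myc, whose genes are among the 35, bind short defined motifs. Each sequence runs 5′ to 3′ on the strand of the gene, from 250 bases before to 50 bases after the RefSeq start site, on GRCm38.p6, which shares its coordinates with mm10. Capitals mark ACGTG and GCGTG, the core letters of HIF binding sites, and any CACGTG, the E-box bound by Myc. Both strands were searched, and because CACGTG holds ACGTG and is its own reverse complement, each CACGTG also counts as ACGTG.
Ldhb, chr6:142507908-142508207, minus strand: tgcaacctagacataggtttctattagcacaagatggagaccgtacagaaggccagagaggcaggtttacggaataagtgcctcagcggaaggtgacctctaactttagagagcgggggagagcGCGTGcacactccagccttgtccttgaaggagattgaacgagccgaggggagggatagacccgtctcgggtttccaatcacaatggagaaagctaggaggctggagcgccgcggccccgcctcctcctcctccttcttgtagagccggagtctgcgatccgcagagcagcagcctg
Pdk1, chr2:71872974-71873273, plus strand: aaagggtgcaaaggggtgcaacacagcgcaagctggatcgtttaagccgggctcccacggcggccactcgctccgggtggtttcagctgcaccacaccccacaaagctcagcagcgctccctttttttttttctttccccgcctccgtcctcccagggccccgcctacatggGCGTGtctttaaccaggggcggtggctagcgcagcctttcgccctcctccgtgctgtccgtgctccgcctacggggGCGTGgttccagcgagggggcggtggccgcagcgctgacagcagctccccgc
Pfkfb4, chr9:108991652-108991951, plus strand: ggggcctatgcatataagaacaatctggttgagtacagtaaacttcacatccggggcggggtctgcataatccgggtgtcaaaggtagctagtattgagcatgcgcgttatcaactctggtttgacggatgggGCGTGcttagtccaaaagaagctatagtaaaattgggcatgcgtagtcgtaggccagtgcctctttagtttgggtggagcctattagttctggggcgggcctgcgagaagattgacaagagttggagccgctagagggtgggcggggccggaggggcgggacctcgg
Egln3, chr12:54203825-54204124, minus strand: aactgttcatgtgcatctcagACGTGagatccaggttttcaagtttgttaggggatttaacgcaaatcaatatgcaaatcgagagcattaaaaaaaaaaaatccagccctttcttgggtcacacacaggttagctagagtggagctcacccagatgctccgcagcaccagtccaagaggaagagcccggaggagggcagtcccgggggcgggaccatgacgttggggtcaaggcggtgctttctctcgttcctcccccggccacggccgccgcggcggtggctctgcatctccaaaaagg

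Counting the start site as position 0, GCGTG began at -126 in the Ldhb window, at -78 and -2 in the Pdk1 window and at -117 in the Pfkfb4 window, and ACGTG at -229 in the Egln3 window. None of the 4 windows held CACGTG. Of the 35 genes, 34 matched an entry of the RefSeq promoter table, and Myc did not. ACGTG was found in 16 of the 34 windows (47.1%), against 20.4% of the 20544 windows in the table and 26.6% of the 8823 windows of tested genes. GCGTG was found in 20 (58.8%), against 36.5% and 52.7%. At least 1 of these motifs was in 28 windows (82.4%), against 47.5% and 64.5%. CACGTG was in 4 (11.8%), against 7.64% and 10.5%. These matches describe letters and not occupied sites, and they were not tested against the fold changes.

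**Figure D1:**
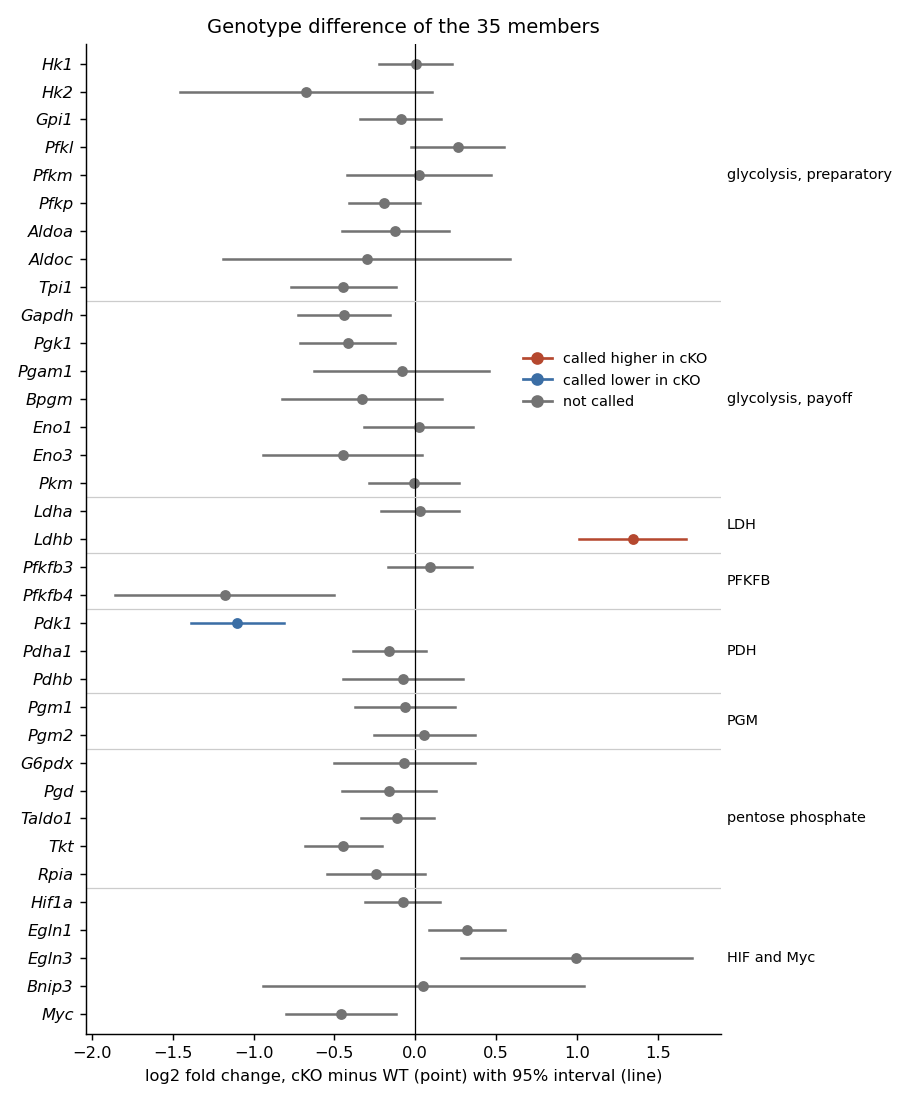
Log2 fold change of each of the 35 genes, cKO minus WT (horizontal axis, points), with the 95% interval of the edgeR fit (lines), grouped by role. Ldhb at 1.34 is the only gene called higher and Pdk1 at -1.10 the only gene called lower, and most other intervals cross 0.

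Lactate dehydrogenase is a tetramer of A and B subunits. Ldhb (ENSMUSG00000030246, chr6:142490249-142507957, minus strand) was counted 130 and 76 times in WT and 247 and 223 times in cKO. Its expression was 19.8 and 17.0 CPM (the depth-scaled count of a gene, on TMM-scaled library sizes) in WT and 46.9 and 47.2 CPM in cKO. Both cKO libraries were above both WT libraries, and the means were 18.4 ± 2.01 and 47.0 ± 0.235 CPM (SD, n = 2 each). The log2 fold change was 1.34 (SE 0.15), a fold of 2.54 with a 95% interval from 2.02 to 3.20 (adjusted p = 0.00212, edgeR), and Ldhb was rank 52 by p among all tested genes. Leaving out any 1 library kept the call, with a log2 fold change between 1.24 and 1.48. In bulk RNA, a change in the share of cells that express a gene and a change in RNA per cell cannot be told apart, here and for each gene below.

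Ldha, the muscle-type (M) subunit and the more abundant of the pair, was at 406.9 and 375.9 CPM in WT and 422.7 and 376.1 CPM in cKO. These values overlapped, with a log2 fold change of 0.03 (95% interval -0.21 to 0.27, adjusted p = 0.918, edgeR). Levels of different genes are set side by side as CPM per kilobase of exon, with the exons of all annotated transcripts of a gene joined. They are approximate, since the transcripts expressed may be shorter. On this scale Ldhb was 9.30% and 8.68% of the lactate dehydrogenase level in WT and 18.9% and 20.9% in cKO. Its mean share was 8.99 ± 0.434% in WT and 19.9 ± 1.38% in cKO (SD, n = 2 each). Of the 50-base windows of the Ldhb transcripts, 21.0% also occur in the transcripts of another gene (Gm5514), so part of its reads may be lost to counting at multiple places in every library.

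The pyruvate dehydrogenase group held the only member called lower in cKO. Pdk1 (ENSMUSG00000006494, chr2:71873224-71903858, plus strand) was counted 1721 and 1396 times in WT and 765 and 574 times in cKO. It stood at 262 and 311 CPM in WT and at 145 and 121.5 CPM in cKO. Both cKO libraries were below both WT libraries, with means of 287 ± 34.9 and 133 ± 16.7 CPM (SD, n = 2 each). The log2 fold change was -1.10 (SE 0.13), a fold of 0.466 with a 95% interval from 0.382 to 0.569 (adjusted p = 0.00286, edgeR), at rank 60 by p. It lay between -1.24 and -0.98 when any 1 library was left out and was called each time. No 50-base window of Pdk1 is shared with another gene.

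Per kilobase, Pdk1 was 66.5% and 67.8% of the summed level of the 4 pyruvate dehydrogenase kinases in WT and 54.2% and 52.0% in cKO. The remainder was Pdk3, at 25.4% and 20.7% in WT and 30.1% and 35.8% in cKO, and Pdk2, between 8.17% and 15.7%, while Pdk4 had no count in any library. Neither of these other kinases was called. Pdk3 was at 32.9 and 31.2 CPM in WT and 26.6 and 27.5 CPM in cKO, a log2 fold change of -0.25 (adjusted p = 0.379, edgeR). Pdk2 had a log2 fold change of -0.24, so the larger shares of both in cKO do not reflect higher levels. The enzyme that the kinases act on was measured through Pdha1, its catalytic alpha subunit, and Pdhb, its beta subunit. Pdha1 had a log2 fold change of -0.16 with a 95% interval from -0.39 to 0.07, and Pdhb one of -0.08 with an interval from -0.45 to 0.29. Of the 9 other genes listed for the complex, 8 were tested and none was called. The lowest adjusted p among them was 0.0742 (edgeR), for Pdp2, a phosphatase that removes the inhibiting phosphate, whose log2 fold change was -0.56 and whose expression was 37.5 and 41.0 CPM in WT and 24.7 and 28.6 CPM in cKO.

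**Figure D2:**
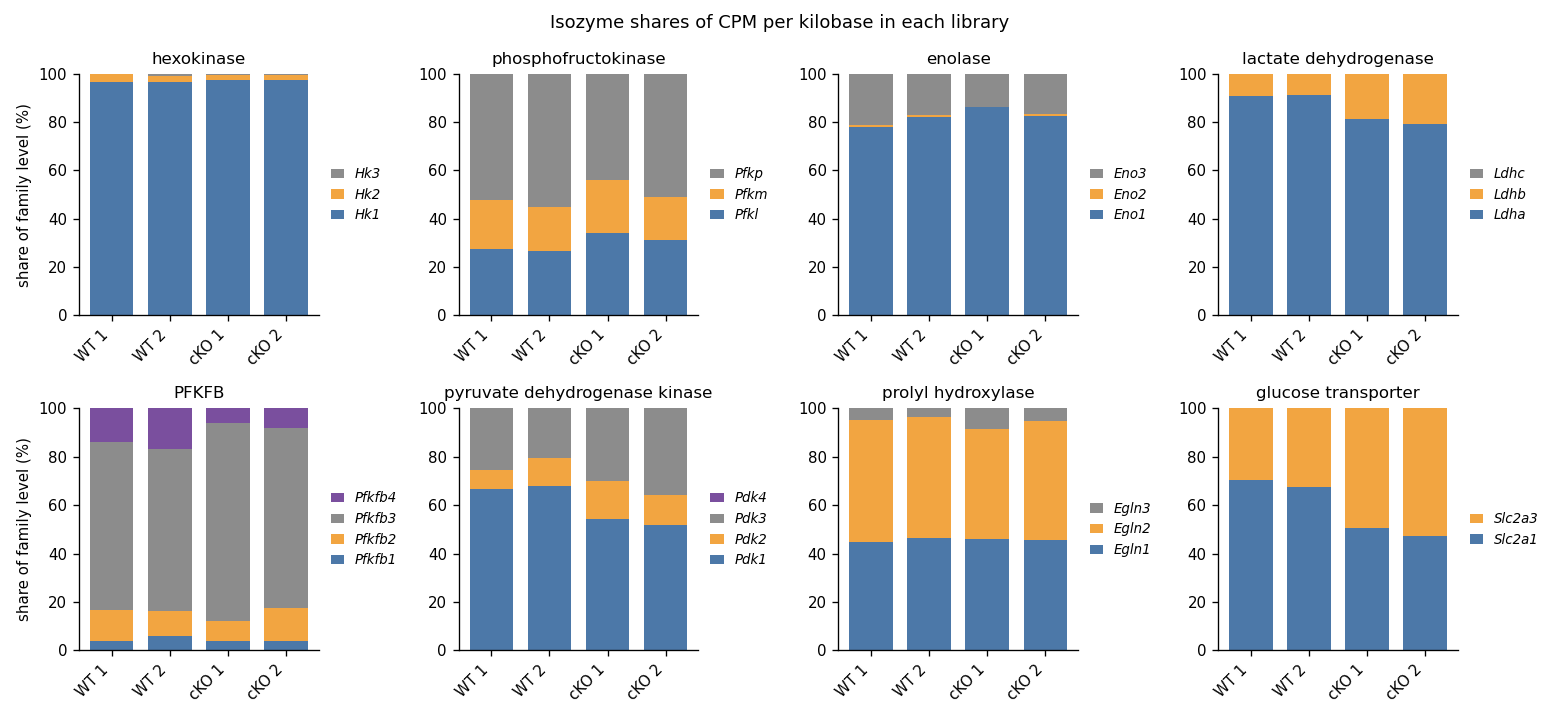
Share of each isozyme in the summed CPM per kilobase of its family (vertical axis, percent) in each of the 4 libraries, with 1 panel per family. The Ldhb share is 8.68% to 9.30% in WT and 18.9% to 20.9% in cKO, and the Pdk1 share is 66.5% to 67.8% in WT and 52.0% to 54.2% in cKO.

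Among the 9 genes of the preparatory stage no gene was called, and log2 fold changes ranged from -0.68 to 0.26 with a median of -0.12 (3 above 0 and 6 below). The lowest adjusted p was that of Tpi1 (ENSMUSG00000023456, chr6:124810586-124814296), triosephosphate isomerase, which converts dihydroxyacetone phosphate into glyceraldehyde 3-phosphate. It was at 36.7 and 39.0 CPM in WT and 29.6 and 25.8 CPM in cKO. The groups did not overlap, with a log2 fold change of -0.45 (SE 0.14, adjusted p = 0.133, edgeR). With 1 library left out, this log2 fold change lay between -0.55 and -0.35.

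The hexokinases trap glucose by phosphorylation. Hk1 made up 96.4% of the hexokinase level per kilobase in both WT libraries and 97.5% in both cKO libraries, and its log2 fold change was 0.00 (95% interval -0.23 to 0.23). Hk2, the inducible isozyme, had the largest value of the stage at -0.68, but rested on 36 and 21 counts in WT and 18 and 14 counts in cKO, and its interval ran from -1.46 to 0.11. Phosphofructokinase, the committed step, had the platelet-type Pfkp as its most abundant isozyme (43.9% to 55.0% of the family per kilobase), followed by the liver-type Pfkl and the muscle-type Pfkm. The Pfkl share was 27.3% and 26.5% in WT and 33.9% and 31.1% in cKO, without overlap, while its log2 fold change of 0.26 had an interval from -0.03 to 0.55. Gpi1, which isomerises glucose 6-phosphate, and the aldolases Aldoa and Aldoc, which split fructose 1,6-bisphosphate, had log2 fold changes of -0.09, -0.12 and -0.30. The log2 fold change of Aldoa was -0.38 without cKO 1 and 0.090 without cKO 2.

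In the payoff stage none of the 7 genes was called, with log2 fold changes from -0.45 to 0.02 and a median of -0.33 (1 above 0 and 6 below). Gapdh (ENSMUSG00000057666, chr6:125161715-125166467), which oxidises glyceraldehyde 3-phosphate and reduces NAD, had the lowest adjusted p of the stage. It was counted 447 and 265 times in WT and 243 and 227 times in cKO, which gave 68.1 and 59.1 CPM against 46.1 and 48.0 CPM. The groups did not overlap, with a log2 fold change of -0.44 (SE 0.13, adjusted p = 0.0943, edgeR). Pgk1, the next enzyme and the first to form ATP, was at 60.6 and 52.9 CPM in WT and 44.0 and 41.1 CPM in cKO, a log2 fold change of -0.42 (adjusted p = 0.117). With 1 library left out, the log2 fold change lay between -0.54 and -0.32 for Gapdh and between -0.51 and -0.31 for Pgk1.

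Eno1, the main enolase, and Pkm, pyruvate kinase, had log2 fold changes of 0.02 (95% interval -0.31 to 0.35) and -0.01 (-0.29 to 0.27), and both were highest in cKO 1 and lowest in cKO 2. Eno3, another enolase, was at -0.45 (-0.94 to 0.04), moving to -0.15 without WT 1 and -0.67 without WT 2, and Pgam1, a phosphoglycerate mutase, at -0.09 (-0.63 to 0.46). Bpgm, which makes the 2,3-bisphosphoglycerate that is abundant in red cells, was at -0.33. Its expression of 31.7 and 49.8 CPM in WT and 28.8 and 35.3 CPM in cKO followed the order of the summed erythroid and platelet markers, which were 101 and 313 CPM in WT and 11 and 222 CPM in cKO. The part of these cells in the Bpgm value was not tested. Gapdh, Pgk1, Pgam1, Eno1 and Pkm share between 25.1% and 53.9% of their 50-base windows with transcripts of other genes, so their counts and levels are uncertain. Ldhb and Bnip3 are the other members above 20%, and 11 members share none.

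**Figure D3:**
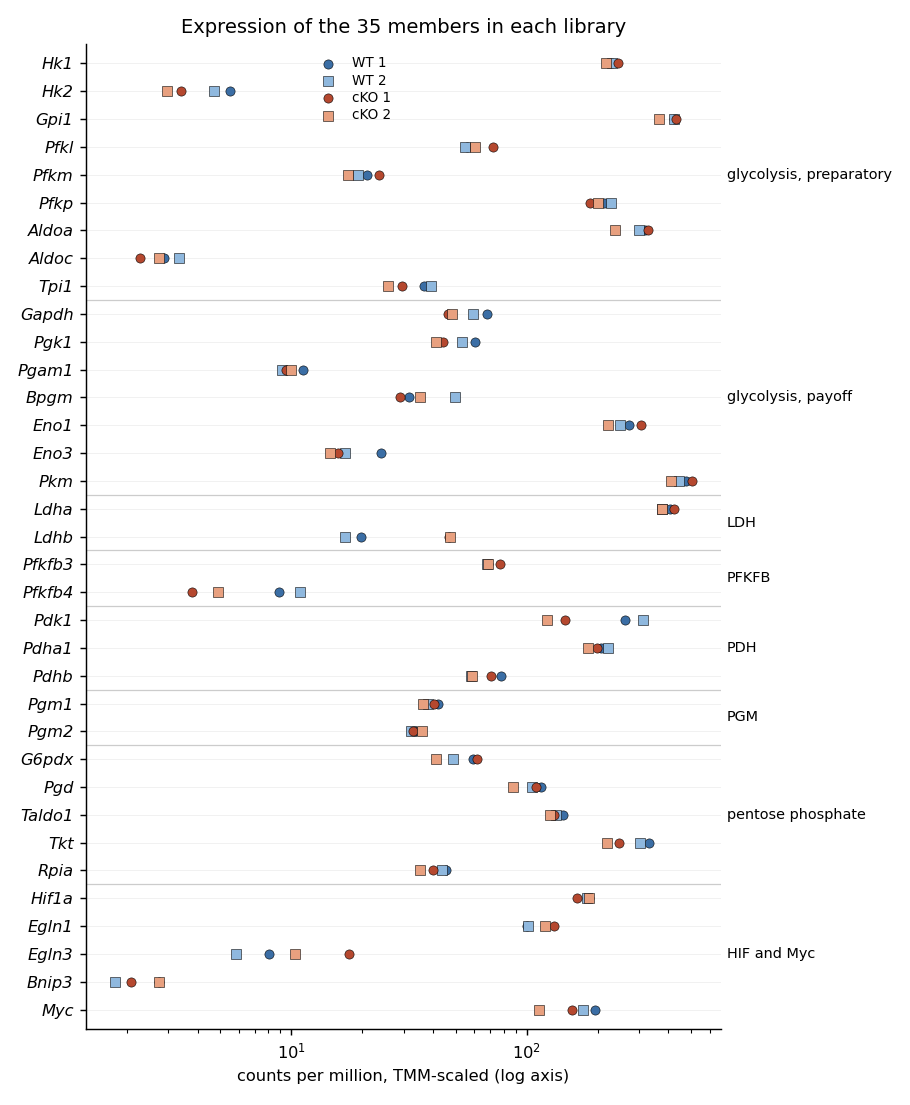
Expression of the 35 genes (horizontal axis, CPM on a log scale) in each library, with circles for replicate 1 and squares for replicate 2 of WT (blue) and cKO (red), grouped by role. The cKO points lie apart from the WT points for Ldhb (46.9 and 47.2 CPM against 19.8 and 17.0 CPM) and Pdk1 (145 and 121.5 CPM against 262 and 311 CPM), and some points cover each other.

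PFKFB enzymes set the level of fructose 2,6-bisphosphate, the strongest activator of phosphofructokinase. Pfkfb4 (ENSMUSG00000025648, chr9:108991778-109032228) was counted 58 and 49 times in WT and 20 and 23 times in cKO, or 8.83 and 10.9 CPM against 3.79 and 4.87 CPM. The groups did not overlap, and the log2 fold change of -1.18 (SE 0.30) was the most negative of the 35 genes, a fold of 0.441 with a 95% interval from 0.276 to 0.706. With these low counts it did not pass the test (adjusted p = 0.0653, edgeR), and without cKO 2 it did (adjusted p = 0.00938). Pfkfb3, the form that strongly favours synthesis, was at 68.7 and 68.0 CPM in WT and 77.2 and 68.4 CPM in cKO, with a log2 fold change of 0.09 (95% interval -0.17 to 0.35). Per kilobase Pfkfb4 was 13.9% and 16.7% of the family in WT and 6.22% and 8.22% in cKO.

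Phosphoglucomutase links glucose 1-phosphate from glycogen to glucose 6-phosphate. Pgm1 (chr4:99929414-99987294) was at 41.9 and 38.1 CPM in WT and 40.4 and 36.4 CPM in cKO. The groups overlapped, with a log2 fold change of -0.06 (SE 0.14, adjusted p = 0.855, edgeR). Pgm2, a related phosphopentomutase, had a log2 fold change of 0.06 with a 95% interval from -0.25 to 0.37.

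All 5 pentose phosphate genes had log2 fold changes below 0, from -0.44 to -0.07 with a median of -0.17, and none was called. Tkt (ENSMUSG00000021957, chr14:30548359-30574720), transketolase of the reversible branch, came closest. It was counted 2177 and 1355 times in WT and 1295 and 1040 times in cKO, or 332 and 302 CPM against 246 and 220 CPM. Both cKO libraries were below both WT libraries, with a log2 fold change of -0.44 (SE 0.10) and a fold of 0.735 whose 95% interval ran from 0.623 to 0.867 (adjusted p = 0.0525, edgeR). This value sat at the threshold: Tkt was called in 6 of 11 alternative fits, among them without cKO 1 (adjusted p = 0.000660) and without cKO 2 (adjusted p = 0.00300), and not without WT 1 (0.394) or WT 2 (0.265).

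G6pdx, glucose 6-phosphate dehydrogenase and the entry of the oxidative branch, had a log2 fold change of -0.07 (95% interval -0.51 to 0.37), and its exons overlap those of Ikbkg. Pgd, the second NADPH-forming enzyme, was at -0.17, Taldo1, transaldolase, at -0.11, and Rpia, ribose 5-phosphate isomerase, at -0.24. Single libraries moved these values. G6pdx was at -0.40 without cKO 1, 0.094 without WT 1 and 0.19 without cKO 2. Pgd was at -0.34 without cKO 1 and -0.017 without cKO 2, Taldo1 at -0.056 without WT 1, and Rpia at -0.15 without cKO 2. Taldo1 and Rpia were lower in both cKO libraries than in both WT libraries, with 95% intervals that included 0. Of the 8 other pentose phosphate genes listed, 6 were tested and none was called in either direction, with log2 fold changes from -0.17 to 0.15.

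The regulators were HIF-1 and Myc genes, with log2 fold changes from -0.46 to 0.99 and no call. Hif1a, the oxygen-regulated subunit of HIF-1, had a log2 fold change of -0.08 (95% interval -0.31 to 0.15). Egln3, a prolyl hydroxylase that marks HIF subunits for degradation and is itself a HIF target, had the lowest adjusted p of the group. Egln3 (ENSMUSG00000035105, chr12:54178981-54203860) was counted 53 and 26 times in WT and 93 and 49 times in cKO, or 8.07 and 5.80 CPM against 17.6 and 10.4 CPM. The cKO libraries were both higher, but the spread within each genotype was wide, and the log2 fold change of 0.99 (SE 0.31) had an adjusted p of 0.127 (edgeR). It was 1.31 without cKO 2 and 0.55 without cKO 1. Egln1, the main oxygen sensor of the family, was at 99.9 and 101 CPM in WT and 131 and 120 CPM in cKO. Its log2 fold change was 0.32 (adjusted p = 0.137, edgeR) and lay between 0.25 and 0.38 with 1 library left out.

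Myc, a transcription factor that drives glycolytic and biosynthetic genes, was at 195 and 174 CPM in WT and 156 and 113 CPM in cKO. Both cKO libraries were below both WT libraries, but cKO 1 lay nearer to WT 2 than to cKO 2. The log2 fold change was -0.46 (SE 0.15, adjusted p = 0.136, edgeR), and it was -0.71 without cKO 1 and -0.25 without cKO 2. Bnip3, a mitophagy receptor and HIF target, was counted between 8 and 18 times in a library, and its log2 fold change of 0.05 had an interval from -0.94 to 1.04. Of 16 further HIF pathway genes and targets 14 were tested and none was called, and of 10 further Myc network genes 8 were tested and none was called.

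Transport of glucose, lactate and pyruvate, across the plasma membrane or into mitochondria, was followed in a separate list of 9 genes. Of these, 7 were tested, 1 rose and 1 fell (28.6% of the tested list, against 4.30% of all tested genes). The list was chosen with earlier results of these data known, so this share was not tested. Slc2a3, which encodes the high-affinity glucose transporter GLUT3, was at 45.7 and 46.9 CPM in WT and 91.3 and 97.4 CPM in cKO. The groups were well apart, with a log2 fold change of 1.03 (SE 0.11), a fold of 2.04 (95% interval 1.71 to 2.43, adjusted p = 0.00212, edgeR). Slc2a1, which encodes GLUT1, was at 52.2 and 47.1 CPM in WT and 44.8 and 41.9 CPM in cKO and was not called (log2 fold change -0.20, adjusted p = 0.448). Per kilobase, Slc2a3 was 29.7% and 32.5% of the sum of these transporters in WT and 49.7% and 52.9% in cKO.

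Slc16a1, which encodes the lactate and pyruvate carrier MCT1, was at 50.6 and 51.1 CPM in WT and 31.3 and 34.9 CPM in cKO. The groups did not overlap, with a log2 fold change of -0.62 (SE 0.13) and a fold of 0.651 (adjusted p = 0.0357, edgeR). It was not called without WT 1 (adjusted p = 0.0899), without WT 2 (0.243) or with DESeq2 (0.112). Slc16a3, the lactate exporter MCT4, had a log2 fold change of -0.75 on 16 to 42 counts (adjusted p = 0.245). The mitochondrial pyruvate carrier genes Mpc1 and Mpc2 were not called, with adjusted p of 0.891 and 0.657.

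**Figure D4:**
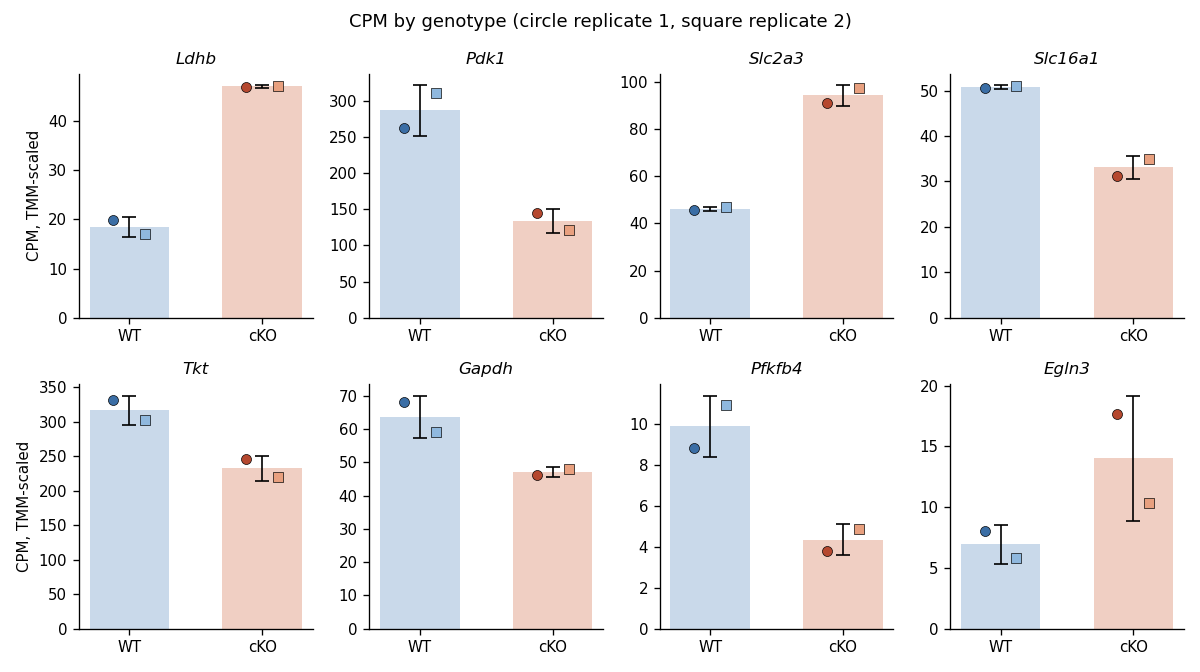
Expression (vertical axis, CPM from 0) of Ldhb, Pdk1, Slc2a3, Slc16a1, Tkt, Gapdh, Pfkfb4 and Egln3, with 1 point per library, bars at the mean of each genotype and error bars of 1 SD (n = 2). Slc2a3 goes from 45.7 and 46.9 CPM to 91.3 and 97.4 CPM, and the Egln3 points of cKO spread from 10.4 to 17.6 CPM.

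Levels within the list spanned more than the genotype differences. In WT, 2 genes exceeded 100 CPM per kilobase (Ldha at a mean of 118 and Aldoa at 106), 23 lay between 10 and 100, 7 between 1 and 10 and 3 below 1. The lowest were Bnip3 (0.999), Aldoc (0.956) and Hk2 (0.852). Between WT and cKO, Ldhb moved from rank 24 to rank 11 of the 35 by this level and Pdk1 from rank 10 to 15. Pfkl moved from rank 28 to 24 and Eno3 from rank 23 to 27. Myc moved from rank 4 to 7, as far as Egln1, Gapdh and Tpi1 moved. No test was made of the ranks.

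The libraries of a genotype also differed over the list as a whole. The 35 genes summed to 4559 and 4416 CPM in WT and to 4370 and 3783 CPM in cKO. Library cKO 2 held the lowest value for 19 of the 35 genes, while it held the lowest value for 28.6% of all tested genes. Within genotypes, 25 of 35 genes were higher in WT 1 than in WT 2 and 25 of 35 in cKO 1 than in cKO 2 (71.4% each), against 49.8% and 51.1% of all tested genes, with median log2 differences of 0.09 and 0.17. The median difference between genotypes, -0.09, was thus no larger than these differences between replicates. The median over the list was -0.06 without WT 1, -0.16 without WT 2, -0.22 without cKO 1 and -0.08 without cKO 2.

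Summed markers of cell types and cell states are given beside these results, and some of them separated the genotypes. The CD4+ T cell markers were high in every library (4911 and 4776 CPM summed over 7 genes in WT, 5634 and 4902 CPM in cKO), and 1 of them, Zbtb7b, which encodes ThPOK, was called higher in cKO. The summed Treg list was 477 and 403 CPM in WT and 860 and 1081 CPM in cKO, with 4 of 7 genes called higher, and the activated or memory list was 895 and 800 CPM in WT and 1139 and 1124 CPM in cKO, with 3 of 8 called higher. The proliferation list was 480 and 474 CPM in WT and 163 and 289 CPM in cKO, with all 8 log2 fold changes below 0 (median -1.36) and 2 called lower (Birc5 and Rrm2). The naive T cell list was 6370 and 6889 CPM in WT and 6621 and 5141 CPM in cKO, with 1 of 6 called lower.

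Of the lists of other blood cells, that of erythroid cells and platelets, given beside Bpgm, overlapped between the genotypes and had no call among 6 tested genes. CD8 T cell and NK cell markers summed to 88.9 and 97.9 CPM in WT and 45.2 and 40.2 CPM in cKO (3 of 5 tested called lower). B cell markers summed to 14.0 and 14.7 CPM in WT and 56.4 and 23.5 CPM in cKO (1 of 3 tested called higher), with Ebf1 at 0 counts in cKO 2. Myeloid markers summed to 28.9 and 37.3 CPM in WT and 106 and 62.0 CPM in cKO (4 of 8 tested called higher), with S100a8, S100a9, Ltf and Cd14 at 0 counts in WT 1. The part of Treg, proliferating or contaminating cells in the values of Ldhb, Pdk1, Slc2a3 and Slc16a1 was not tested.

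**Figure D5:**
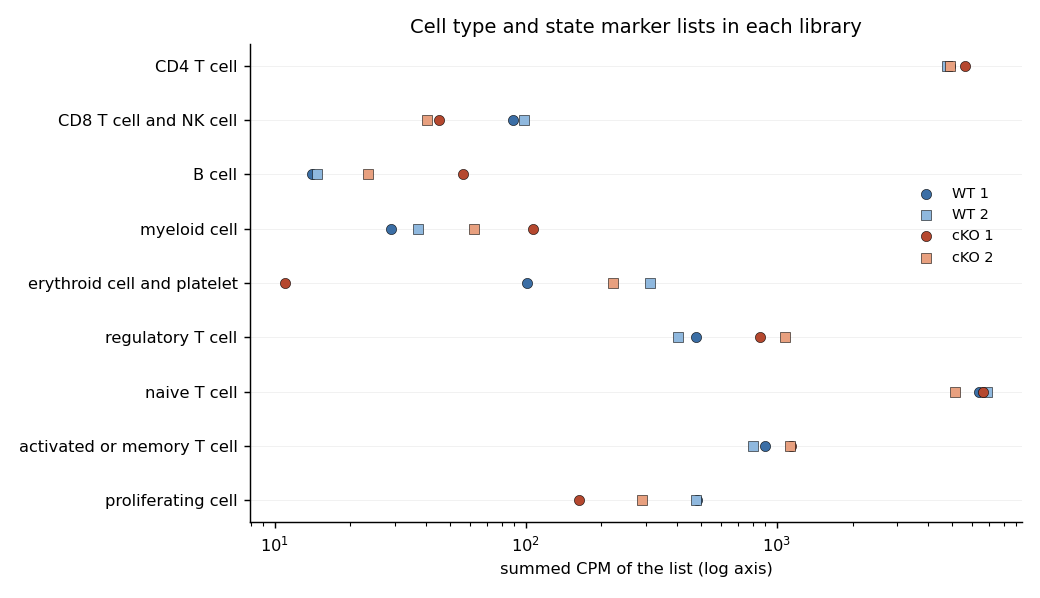
Summed expression (horizontal axis, CPM on a log scale) of each marker list (rows), with 1 point for each of the 4 libraries. The Treg list is at 860 and 1081 CPM in cKO against 477 and 403 CPM in WT, and the proliferation list at 163 and 289 CPM against 480 and 474 CPM.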

How the data were processed

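RNA of sorted CD4+ T cells was sequenced as reads of 50 bases in 4 libraries, 2 per genotype. According to the submitters' processing notes, reads were aligned to mm10 with HISAT2 2.1.0 and counted with HTSeq 0.11.1 (the study's methods name another patch release of HTSeq). The deposited tables hold the raw count of reads per gene symbol, which the authors did not scale. The annotation and strand setting are not given in the sources used here, and the library kit does not mark strand, so reads of overlapping genes (14 of the 35 members) cannot be assigned by strand. The 5 summary lines of each table were kept out of library sizes and tests.

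Genes were filtered with filterByExpr and scaled by TMM, and genotypes were compared with the two-sided quasi-likelihood F test of edgeR 4.0.16 in R 4.3.3, p-values adjusted by Benjamini-Hochberg over the 12403 genes tested and a call at an adjusted p under 0.05. The SE is the absolute log2 fold change over the square root of F, and intervals are at 95%. Members and lists were chosen with earlier results of these data known. Full statistics were given for called members, for the member with the lowest adjusted p in each role group without a call, for called pathway genes, and for Satb1, Xist and Ddx3y. Values of further genes were given where they bear on these. Gene positions and exonic lengths came from GENCODE M21 (GRCm38), in which 53292 of the 55367 symbols and all 35 members were found, and start site windows from RefSeq. With 2 libraries per genotype, an exact permutation test of single values cannot go below p = 0.333 and was not used. Intervals cover counting error and the spread between libraries only, and 3 counts correspond to 0.457 to 0.669 CPM. Alternatives were DESeq2 1.42.0, RLE and total-count scaling, other filters, a replicate block, leaving out genes on X and Y, and leaving out each library. The procedure was tested on simulated data. Plots were drawn with matplotlib 3.10.9 in Python 3.11.15.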

Additional observations from a re-analysis of the deposited data

How the results depend on the processing

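Ldhb, Pdk1 and Slc2a3 were called in all 11 alternatives. The number of called genes, 533, was 1367 with no filter on low counts, 1165 with the replicate block and 180 (without WT 2) to 1783 (without cKO 2) with 1 library left out. The number of called members, 2, was 3 with DESeq2 and 3 with total counts (Tkt added), 6 with no filter (Egln3, Myc, Pfkfb4 and Tkt added), 8 with the replicate block (Gapdh and Pgk1 also added) and 2 to 7 with 1 library left out. The deviations of same-numbered libraries correlated at 0.0646 across genes. The labels do not say whether same-numbered libraries were paired, and this value cannot decide it. The median over the members lay between -0.22 and -0.06 with 1 library left out. Of 415 single-gene values under alternatives, 28 changed sign. With no filter Hk1 was at -0.0034. With 1 library left out, log2 fold changes crossed 0 for Hk1 (-0.087 to 0.084), Gpi1 (-0.22 to 0.024), Pfkm (-0.22 to 0.22), Aldoa (-0.38 to 0.090), Pgam1 (-0.22 to 0.093), Bpgm (-0.63 to 0.013), Eno1 (-0.24 to 0.23), Pkm (-0.17 to 0.13), Ldha (-0.062 to 0.11), Pfkfb3 (-0.0030 to 0.18), Pdhb (-0.27 to 0.17), Pgm1 (-0.14 to 0.017), Pgm2 (-0.0086 to 0.12), G6pdx (-0.40 to 0.19), Hif1a (-0.16 to 0.0013), Bnip3 (-0.19 to 0.43) and Satb1 (-0.13 to 0.042). Without a change of sign, Pfkl (0.13 to 0.38), Aldoc (-0.44 to -0.17) and Pdha1 (-0.23 to -0.093) also moved. The cause of these moves was not tested. With 1 library left in a genotype, its spread was assumed to equal that of the other genotype. Depth limits the genes of lowest count most: Hk2, Aldoc and Bnip3 have the widest intervals of the 35 genes.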

Other observations

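In the HIF list none of the 14 tested genes was called, and the groups did not overlap for 6 genes higher and 2 genes lower in cKO, against 50.3% of all tested genes in either direction. The values given here are those of uncalled genes. Epas1, which encodes HIF-2 alpha, was counted 76 and 50 times in WT and 213 and 73 times in cKO (log2 fold change 1.30, adjusted p = 0.107, edgeR), so that most of its difference lay in cKO 1. Hif3a was counted 42 and 22 times in WT and 13 and 4 times in cKO (log2 fold change -1.74, adjusted p = 0.0828). Ddit4, an inhibitor of mTORC1 signalling, was at 433 and 379 CPM in WT and 740 and 479 CPM in cKO (log2 fold change 0.59, adjusted p = 0.127), and P4ha1, a collagen prolyl hydroxylase, at 65.9 and 65.8 CPM in WT and 80.8 and 95.9 CPM in cKO (log2 fold change 0.42, adjusted p = 0.0962). Of the 14 tested genes of this list 5 had an unadjusted p under 0.05, against 19.1% of all tested genes. They were Epas1, Hif3a, Ddit4, P4ha1 and Bnip3l. Bnip3l was at 84.2 and 76.3 CPM in WT and 96.8 and 99.7 CPM in cKO (log2 fold change 0.29, adjusted p = 0.194, edgeR). Among 7 tested further glycolysis genes, Tigar, a fructose 2,6-bisphosphatase, was at 29.1 and 27.4 CPM in WT and 20.1 and 22.2 CPM in cKO (log2 fold change -0.42, adjusted p = 0.182).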
